A study of Mus musculus with 4 samples.

Results

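The fibroblast growth factor (FGF) and platelet-derived growth factor (PDGF) ligands and receptors were followed in mouse podocytes given interleukin-12 (IL-12). The 10 genes were Fgf1, Fgf2, Fgf7, Pdgfa, Pdgfb and Pdgfc, which encode ligands, and Fgfr1, Fgfr2, Pdgfra and Pdgfrb, which encode receptors. They were found by gene name among 54532 genes counted, and 8 of them had enough reads to be among the 14095 genes tested. All 4 libraries came from MPC5, a conditionally immortalized mouse podocyte line that was differentiated in medium without interferon-γ. The 2 libraries of the IL-12 group came from cells exposed for 6 h to IL-12 at 400 ng/ml. The 2 libraries of the control group came from podocytes given saline. A time is given for the IL-12 libraries only, so a matched time of the controls is not stated. The purpose of the comparison was to see how IL-12 acts on podocytes. As 1 cell line was used and no source states that replicate libraries were separate cultures, the p-values measure the spread between these libraries, which may be technical.

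FGF ligands bind receptor tyrosine kinases together with heparan sulfate chains on the cell surface, and the receptors pass the signal through docking proteins to the RAS and ERK kinases. PDGF ligands act as dimers on the α and β PDGF receptors, where the PDGF-B chain binds both receptors and the PDGF-A and PDGF-C chains bind mainly the α receptor. In the glomerulus, PDGF-B made by endothelial cells recruits mesangial cells, which carry the β receptor.

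In brief, 6 of the 8 tested genes changed after IL-12 (edgeR quasi-likelihood test, adjusted p below 0.05 by the Benjamini-Hochberg method over all genes tested). Fgf2, Pdgfb, Fgfr1 and Pdgfrb rose, whereas Fgfr2 and Pdgfc fell. Over all genes tested, 30.5% changed, with 16.1% higher and 14.4% lower. Only Fgf2 passed a 2-fold limit as well, which 1.61% of all genes tested did. In 7 of the 8 genes the values of the groups did not overlap, which was the case for 62.9% of all genes tested. The median log2 fold change was 0.23 over the 8 genes and -0.0022 over all genes tested.

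The total counts per library ranged from 18355379 to 20098012. At this depth, 3 counts correspond to between 0.152 and 0.166 CPM (counts scaled to library size, here with TMM factors), which covers counting error only. Across all genes, 2267 were higher and 2030 were lower, so 52.8% of the calls were higher, against 40.5% (1765 higher and 2590 lower) when total counts alone were used for scaling. Among the defining podocyte genes, Tcf21 and Ptpro had no counts in any library, Nphs1 (nephrin) had at most 1 count in a library, and Wt1 had 4 to 16. The cytoskeletal genes Actn4, Synpo and Cd2ap were the most abundant of the 12 podocyte markers. Of the markers, 3 of the 6 tested were higher and 1, Synpo, was lower (480 ± 13.7 to 304 ± 3.79 CPM, SD, n = 2 per group). Il12rb1 had 25 and 8 counts in the controls and 18 and 26 after IL-12. Il12rb2, the other IL-12 receptor chain, had 0 and 0 and then 1 and 4, too few to be tested.

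Markers of other cell types were measured beside these. The summed level of 13 mesangial, pericyte and fibroblast markers was 190 to 194 CPM in the controls and 202 CPM in both IL-12 libraries, with 3 of the 6 tested genes higher and 2 lower. Acta2, Mcam and Gata3 were its most abundant genes, and Ren1, Rgs5 and Lum were at 0. The 7 parietal and tubule markers summed to 1015 to 1046 CPM in the controls and 800 to 839 CPM after IL-12, with Lrp2, Pax2 and Pax8, the most abundant of them, lower among 4 tested and Slc34a1 and Umod at 0. The 8 immune markers summed to 37.0 to 37.6 CPM and then 21.3 to 22.9 CPM, with both tested genes, Csf1r and Cd14, lower. Ptprc followed with 3 and 1 counts in the controls and 6 and 12 after IL-12, too few to be tested. Cd3e and Adgre1 were at 0. The 8 endothelial markers summed to 10.7 to 10.8 CPM and then 8.80 to 8.84 CPM. Nearly all of this was Ehd3 (10.3 and then 8.35 CPM), the 1 gene of the list that was tested, which did not pass (edgeR adjusted p = 0.0807). Kdr and Cdh5 followed with at most 5 counts in a library, and Emcn and Tie1 were at 0. Their part in the results below was not tested. In bulk RNA, fewer cells of a type and less RNA per cell cannot be told apart.

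Upstream sequence is shown for the ligand gene with the largest fold change and for the genes that fell. The windows are the 250 bases before the RefSeq transcription start on GRCm38.p6, which were given for 6 of the 10 genes. Fgf1, Fgfr1, Pdgfb and Pdgfrb had none, so of the genes that rose only Fgf2 had a window. Capitals mark each CG dinucleotide. The window of Fgf2 on the plus strand (chr3:37348403-37348652) lies inside the annotated span of the gene. A stretch of 30 bases is therefore given, at chr3:37348592-37348621, which begins 61 bases before the start.
Fgf2: aggCGgCGCGCGgggCGggggCGcaCGggg
The Fgfr2 window lies inside the span of the longest annotated Fgfr2 transcript. It does not adjoin the other 26 transcripts, which lie within chr7:130162451-130266263. The windows of Fgfr2 (minus strand, chr7:130266809-130267058) and Pdgfc (plus strand, chr3:81036166-81036415) are given whole.
Fgfr2: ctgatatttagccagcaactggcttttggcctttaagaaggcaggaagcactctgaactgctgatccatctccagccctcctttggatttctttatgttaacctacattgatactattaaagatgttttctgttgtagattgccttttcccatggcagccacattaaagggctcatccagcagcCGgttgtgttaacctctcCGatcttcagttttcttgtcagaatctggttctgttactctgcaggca
Pdgfc: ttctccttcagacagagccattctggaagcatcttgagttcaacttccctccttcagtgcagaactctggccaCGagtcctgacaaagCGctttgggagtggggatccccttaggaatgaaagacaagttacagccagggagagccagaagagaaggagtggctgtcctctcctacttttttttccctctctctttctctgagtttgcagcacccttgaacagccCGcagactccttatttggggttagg

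The Fgf2 window was 62.4% G and C with 20 CG dinucleotides, 7 of them in the stretch shown. The Fgfr2 window was 44.0% G and C with 2 CG dinucleotides and the Pdgfc window 50.8% with 3, against a median of 52.4% and 6 over 32851 promoters. Pdgfa had 2 starts, with windows of 66.4% and 72.4% G and C. The Fgf7 window was 43.6% G and C with 6 CG dinucleotides and the Pdgfra window 54.4% with 4. A link between base composition and direction of change was not tested. A search on both strands found the GC box letters GGGCGG in the windows of Fgf2 and Pdgfa, and in 32.7% of all promoters. The TATA box letters TATAAA (12.4% of all promoters), the AP-1 letters TGANTCA (6.75%) and the STAT letters TTCNNNGAA (7.02%) were not in any of the members' windows. The last 2 motifs read the same on both strands. A match is a description of these letters only, and no match says nothing about the factor.

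Among the FGF ligands, Fgf2 (ENSMUSG00000037225, chr3:37348346-37410108, plus strand) encodes basic FGF, a broadly acting growth factor that has been linked to podocyte injury in experimental glomerular disease. It had 27 and 18 counts in the controls, as against 63 and 58 after IL-12. These correspond to 1.43 and 0.954 CPM in the controls and 3.18 and 3.21 CPM after IL-12. Both IL-12 libraries lay above both controls, and Fgf2 rose 2.68-fold (log2 fold change 1.42, SE 0.28, 95% interval 0.82 to 2.02, edgeR adjusted p = 0.000737). Of its 6782 exon bases, 13.2% are shared with exons of other genes, mainly Nudt6 on the opposite strand, and no source states whether strand was used in counting. Nudt6 had 41 and 39 counts in the controls and 59 and 42 after IL-12, and its own log2 fold change was 0.33 (SE 0.26, edgeR adjusted p = 0.376). How many of the reads counted on Fgf2 came from Nudt6 was not tested.

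Fgf1 (ENSMUSG00000036585) encodes acidic FGF, which binds all the FGF receptors. It had 20 and 36 counts in the controls and 33 and 33 after IL-12, so its groups overlapped. Its log2 fold change was 0.23 (SE 0.33, 95% interval -0.47 to 0.94, edgeR adjusted p = 0.656). The sign rested on 1 library, since the log2 fold change was -0.13 without control replicate 1. Fgf7 (ENSMUSG00000027208), which encodes keratinocyte growth factor, a ligand of an epithelial form of FGFR2, had 1 and 2 counts in the controls and 5 and 2 after IL-12. It was too low to be tested. For Fgf1 the interval spans changes of under 2-fold in either direction, and for Fgf7 a difference was not detectable at this depth.

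Among the PDGF ligands, Pdgfb (ENSMUSG00000000489, chr15:79995874-80014977, minus strand) encodes the B chain. Its counts were 3105 and 3172 in the controls and 4402 and 4117 after IL-12, or 164 and 168 CPM against 223 and 228 CPM. The IL-12 libraries lay above the controls, and Pdgfb rose 1.36-fold (log2 fold change 0.44, SE 0.04, edgeR adjusted p = 4.74e-08). No exon of Pdgfb is shared with another annotated gene.

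Pdgfc (ENSMUSG00000028019, chr3:81036416-81214040, plus strand) encodes the C chain, which is secreted in a latent form and must be cleaved before it binds a receptor. It had 118 and 109 CPM in the controls and 87.2 and 92.3 CPM after IL-12, without overlap. Pdgfc fell by 0.34 on the log2 scale (SE 0.05, edgeR adjusted p = 4.26e-05), to 0.790 times the control level. Pdgfc thus moved in the direction opposite to Pdgfb.

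Pdgfa (ENSMUSG00000025856, chr5:138976014-138997370, minus strand) encodes the A chain. It had 155 and 158 CPM in the controls and 166 and 169 CPM after IL-12. Both IL-12 libraries were above both controls, but the log2 fold change of 0.09 (SE 0.04, 95% interval 0.01 to 0.18) did not pass the test (edgeR adjusted p = 0.0783). An antisense gene, 6330403L08Rik, shares 26.1% of the Pdgfa exon bases and had 2937 counts over the 4 libraries against 12255 for Pdgfa. Reads of these genes cannot be told apart without strand.

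**Figure D1:**
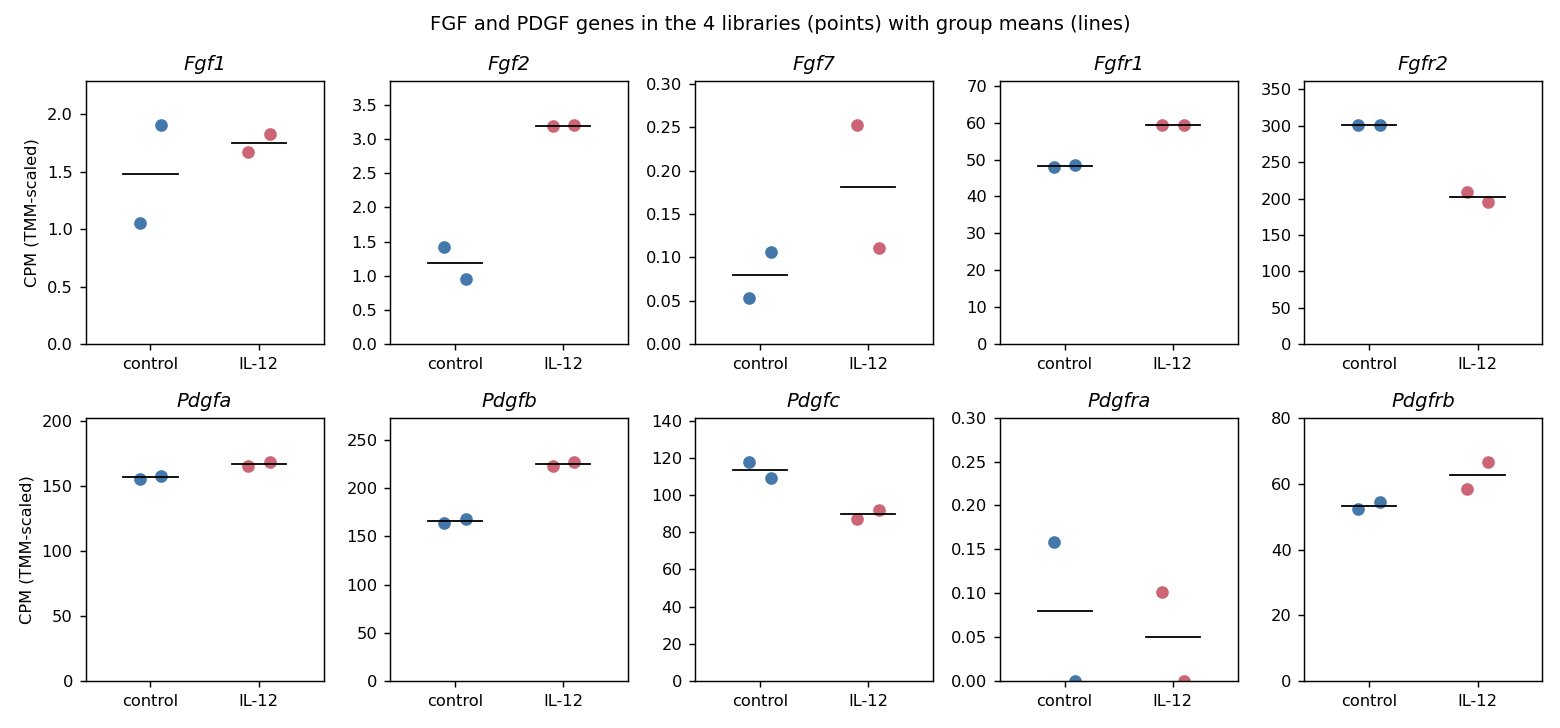
Level of each of the 10 genes (y axis, TMM-scaled CPM from 0) in the 2 control and 2 IL-12 libraries (x axis), where points are libraries and lines are group means. Fgf2, Fgfr1, Pdgfb and Pdgfrb lay higher and Fgfr2 and Pdgfc lower after IL-12, while Fgf7 and Pdgfra had at most 5 counts in a library.

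Among the receptors, Fgfr2 (ENSMUSG00000030849) encodes FGF receptor 2, which is needed for branching of the developing kidney. It had 5709 and 5677 counts in the controls and 4128 and 3547 after IL-12. The level was 301.4 and 300.8 CPM in the controls and 208.7 and 196.1 CPM after IL-12. The groups were far apart, and Fgfr2 fell by 0.57 on the log2 scale (SE 0.04, 95% interval -0.65 to -0.49, edgeR adjusted p = 1.32e-09), to 0.672 times the control level. The annotated gene spans chr7:130162451-133123350 on the minus strand because of 1 of its 27 transcripts, and the other 26 lie within chr7:130162451-130266263. Ctbp2 shares 3.04% of the Fgfr2 exon bases on the same strand and also fell, by 0.28 (SE 0.04), with 8135 counts over the 4 libraries against 19061 for Fgfr2. The epithelial and mesenchymal splice forms of Fgfr2 cannot be told apart in counts per gene.

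Fgfr1 (ENSMUSG00000031565, chr8:25513654-25575718, plus strand) encodes FGF receptor 1, the main FGF receptor of many mesenchymal cells. It had 911 and 918 counts in the controls and 1172 and 1074 after IL-12, or 48.1 and 48.6 CPM against 59.2 and 59.4 CPM. The groups did not overlap, and Fgfr1 rose 1.23-fold (log2 fold change 0.29, SE 0.06, edgeR adjusted p = 0.000422), the direction opposite to Fgfr2.

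Pdgfrb (ENSMUSG00000024620) encodes the β receptor. It had 52.2 and 54.5 CPM in the controls and 58.5 and 66.8 CPM after IL-12. The IL-12 libraries lay above the controls but differed from each other more than the controls did. Pdgfrb rose 1.17-fold (log2 fold change 0.23, SE 0.06, edgeR adjusted p = 0.00956). This call was lost without IL-12 replicate 2 (log2 fold change 0.13, adjusted p = 0.204), with the DESeq2 Wald test (adjusted p = 0.0782) and with no filter on low counts (adjusted p = 0.0638). Pdgfra (ENSMUSG00000029231), which encodes the α receptor, had 3 and 0 counts in the controls and 2 and 0 after IL-12, at or under the 3 counts taken as the limit of detection, and was not tested. The receptor transcript that PDGF-A and PDGF-C mainly signal through was therefore at or under that limit in all 4 libraries, although both ligand genes were well measured.

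**Figure D2:**
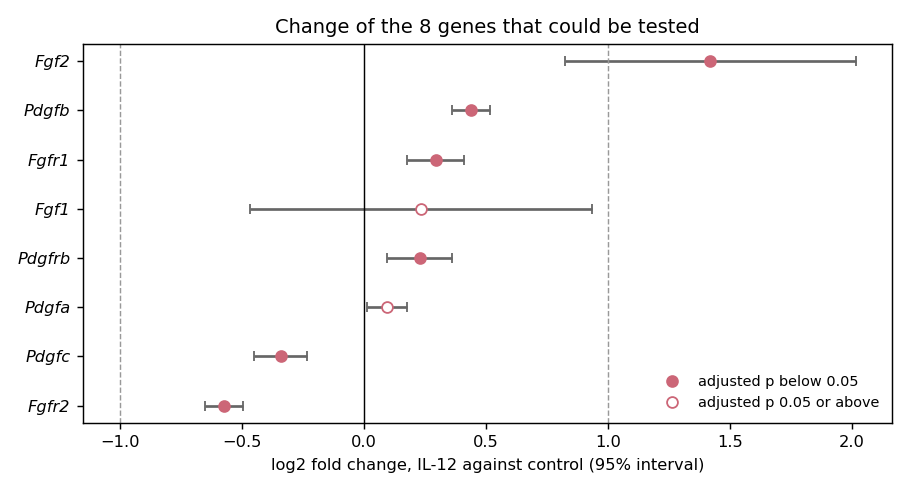
Log2 fold change of IL-12 against control (x axis) with its 95% interval for the 8 genes that could be tested (y axis), with filled points for an adjusted p below 0.05 and dashed lines at the 2-fold limit. Fgf2 had the highest value, 1.42, and Fgfr2 the lowest, -0.57.

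Levels were compared between genes per kilobase of the deposited gene length (RPKM, computed from the TMM-scaled CPM). In the controls the order of the mean levels was Pdgfa (50.2 ± 0.529 RPKM, SD, n = 2), Pdgfb (39.9 ± 0.708), Fgfr2 (29.2 ± 0.0383), Pdgfc (22.3 ± 1.25), Pdgfrb (9.74 ± 0.299) and Fgfr1 (4.90 ± 0.0395). Fgf1 (0.319 ± 0.130 RPKM) and Fgf2 (0.175 ± 0.0492 RPKM) followed far below. The gap between Fgf1 and Fgf2 was close to the spread of Fgf1. For these and all the other neighbours the libraries did not overlap on the deposited lengths. Fgf1 has a deposited length of 4648 bases but 5463 annotated exon bases. The longer length would give Fgf1 a lower level, and the order was not tested with it.

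After IL-12, the order at the top was Pdgfb (54.1 ± 0.858 RPKM) and Pdgfa (53.6 ± 0.681 RPKM), which differed by less than their SD. Fgfr2 (19.6 ± 0.863 RPKM) and Pdgfc (17.6 ± 0.703 RPKM) came next, then Pdgfrb (11.4 ± 1.07 RPKM) and Fgfr1 (6.01 ± 0.00873 RPKM). Fgf2 (0.471 ± 0.00223 RPKM) stood above Fgf1 (0.376 ± 0.0237 RPKM), the reverse of the order of means in the controls.

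Ratios of the per-length levels put these shifts on 1 scale. The ratio of Pdgfb to Pdgfa was 0.790 and 0.798 in the controls and 1.006 and 1.011 after IL-12. The ratio of Pdgfb to Pdgfc was 1.70 and 1.88 in the controls and 3.12 and 3.02 after IL-12. In both ratios the groups were apart. The 4 PDGF ligand genes, with Pdgfd included, summed to 119 and 118 RPKM in the controls and 129 and 132 RPKM after IL-12. Within that sum, the share of Pdgfb was 33.0% and 34.2% in the controls and 41.3% in both IL-12 libraries, while the share of Pdgfc was 19.4% and 18.2% and then 13.2% and 13.7%.

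For the receptors, the ratio of Fgfr2 to Fgfr1 was 5.99 and 5.91 in the controls and 3.37 and 3.16 after IL-12. The 4 FGF receptor genes summed to 44.5 and 44.7 RPKM in the controls and 33.0 and 31.8 RPKM after IL-12. The share of Fgfr1 in that sum was 10.9% and 11.0% and then 18.2% and 18.9%, and that of Fgfr2 was 65.6% and 65.2% and then 61.2% and 59.8%. Fgfr2 thus remained the most abundant FGF receptor transcript in all 4 libraries. No test was made of the ratios and shares, since with 2 libraries in each group the smallest two-sided p of an exact permutation test is 0.333.

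**Figure D3:**
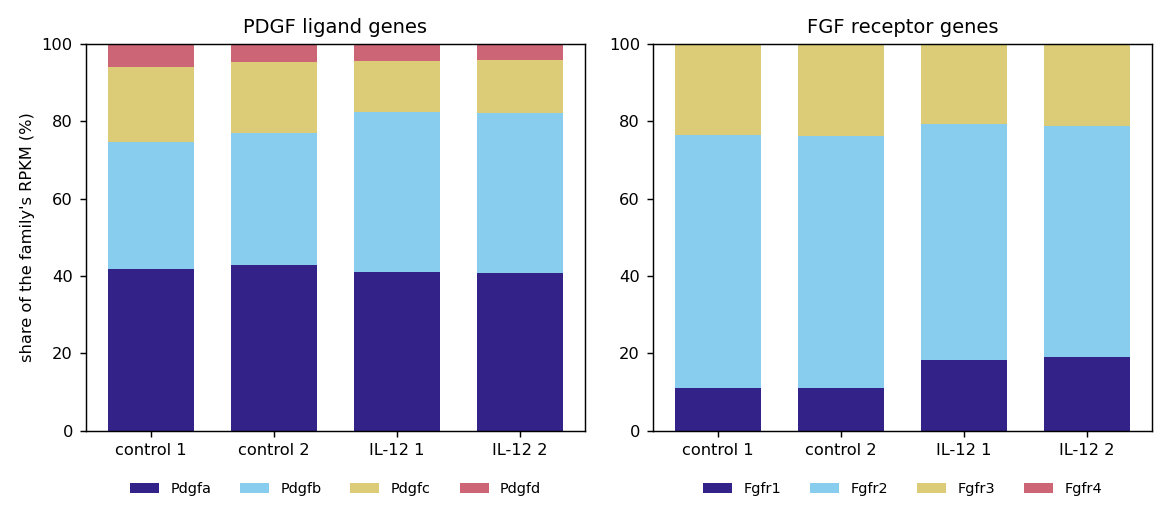
Share of each gene in the summed per-length level (y axis, percent of RPKM) of the 4 PDGF ligand genes and the 4 FGF receptor genes in each library (x axis). The Pdgfb share was 33.0% and 34.2% in the controls and 41.3% in both IL-12 libraries, and the Fgfr1 share went from 10.9% and 11.0% to 18.2% and 18.9%.

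Of 26 other genes of the FGF and PDGF families, 5 could be tested and 12 had no counts in any library. Of the 5, only Fgfr3, which encodes FGF receptor 3, changed. It had 1416 and 1435 counts in the controls and 962 and 876 after IL-12, and it fell by 0.64 on the log2 scale (SE 0.05, edgeR adjusted p = 3.09e-08). Its groups did not overlap, and its direction was that of Fgfr2.

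Of 29 genes for heparan sulfate and FGF binding, 25 were tested, 5 were higher and 12 were lower, with a median log2 fold change of -0.11. The higher genes with the smallest p were Ext1, an enzyme that builds the heparan sulfate chain (0.55, edgeR adjusted p = 3.18e-09), Flrt2, a membrane protein of a family that binds FGF receptors (0.66), and the syndecan gene Sdc3 (0.27). The lower ones were the syndecan gene Sdc1 (-0.29, edgeR adjusted p = 2.47e-06), the sulfating enzyme gene Ndst1 (-0.26) and the glypican gene Gpc4 (-0.35). Members of this list thus moved both ways.

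Of 6 genes for proteases that cleave PDGF chains, 5 were tested and 3 rose, with a median log2 fold change of 0.14. Plat, which encodes tissue plasminogen activator, a protease known to activate PDGF-CC, went from 160 ± 0.986 to 232 ± 4.39 CPM (SD, n = 2 per group) and rose by 0.54 on the log2 scale (edgeR adjusted p = 3.27e-09). Plau, which encodes urokinase, rose by 0.20 and Furin, which encodes a proprotein convertase, rose by 0.14. The values of Pcsk6 and Pcsk7 were -0.11 and 0.02, and neither passed the test.

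Of 34 genes that relay the receptor signal, all were tested, 7 were higher and 10 were lower, with a median log2 fold change of -0.04. The kinase gene Src (0.33), the RAS regulator Rasa1 (0.34) and the RAS gene Nras (0.20) were higher. The docking protein gene Gab1 (-0.56), the ERK kinase gene Mapk3 (-0.32) and the PI3-kinase subunit gene Pik3r1 (-0.26) were lower. These were the 3 with the smallest p in each direction.

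Of 19 genes known to respond to FGF and ERK signalling, 18 were tested and 13 rose, with a median log2 fold change of 0.50. The remaining 5 tested genes had log2 fold changes of 0.20 (Spry2), 0.17 (Spred3), 0.15 (Il17rd), 0.08 (Egr1) and -0.10 (Ier3). Etv4, a transcription factor of the ETS family, had 149 and 177 counts in the controls and 529 and 425 after IL-12, and rose by 1.54 (SE 0.11, edgeR adjusted p = 6.70e-09). Its relative Etv5 was the only other gene of the list over 2-fold, at 1.07 (SE 0.10). Ccnd1, which encodes cyclin D1, rose by 0.55 (SE 0.03, edgeR adjusted p = 1.09e-10), and Fosl1, an AP-1 subunit gene, rose by 0.94 (SE 0.07). The lists were chosen with earlier results of these data known. Their counts are therefore only descriptions beside the 30.5% of all genes that changed, with 16.1% higher and 14.4% lower. Which signal moved the response genes was not tested.

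**Figure D4:**
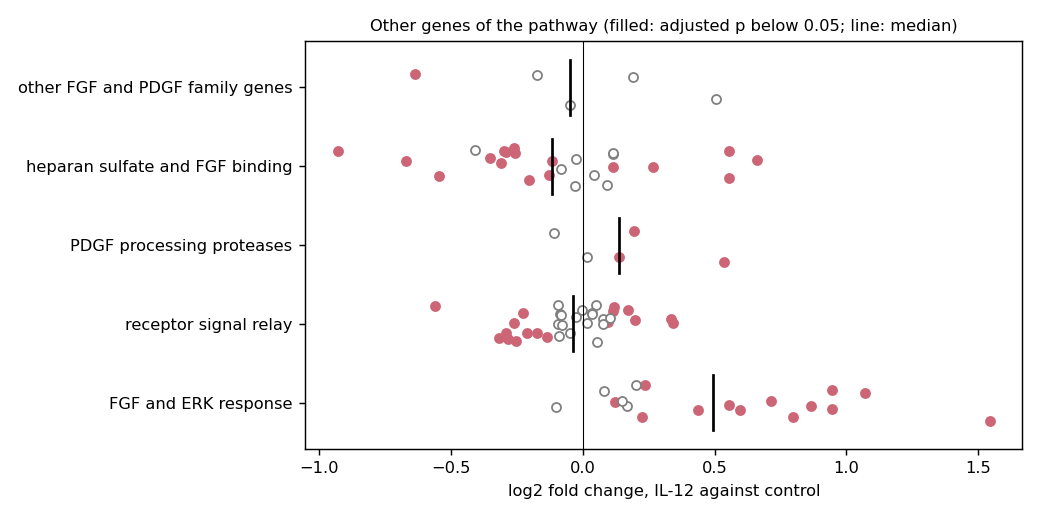
Log2 fold change of IL-12 against control (x axis) for the tested genes of 5 pathway lists (y axis), with filled points for an adjusted p below 0.05 and a vertical line at each list's median. The median was 0.50 for the FGF and ERK response genes and between -0.11 and 0.14 for the other lists. The lists were chosen with earlier results of these data known.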

How the data were processed

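RNA-sequencing of 2 control and 2 IL-12 libraries was analysed, grouped by their labels. The authors deposited raw counts per gene, not normalized, and FPKM values, which were not used here. The submitters' processing notes name HISAT2, StringTie and mm9, whereas 98.3% of 54409 gene coordinates equal those of GENCODE M21 (GRCm38), the build used here. Strand use and the handling of reads that match several genes are not given in the sources used here and could change counts of overlapping genes. In R 4.3.3, edgeR 4.0.16 was run with filterByExpr (minimum of 10 counts, 15 in total), TMM scaling (factors of 0.985 to 1.02) and the quasi-likelihood test, with Benjamini-Hochberg adjustment over 14095 genes. SE is the standard error of the log2 fold change. Replicate libraries differed beyond sampling noise (chi-square over its degrees of freedom, 2.13 for the controls and 2.41 for the IL-12 libraries) and were therefore not merged as copies of 1 library, which does not show that they were separate cultures.

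The alternatives were other scalings and filters, DESeq2 1.42.0, limma 3.58.1 (voom), a replicate block and each library left out in turn. Named genes were all 10 members and, in each pathway list, the 3 genes with the smallest p in each direction. The 3 most abundant and the absent genes of the marker lists were named as well. The gene sharing the most exon bases was named for Fgf2, Fgfr2 and Pdgfa. Fgfr1 shares 1.66% of its exon bases with Gm16159 and Pdgfc 2.89% with Gm16000. These antisense genes had 6 and 3 counts over the 4 libraries. Pdgfra shares 6.50% with genes that had 0 counts. The remaining genes of short counts, and Fgf18, were named after their values were seen. Members and lists were chosen with earlier results of these data known. Plots were made with matplotlib 3.10.9 in Python 3.11.15.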

Additional observations from a re-analysis of the deposited data

How the results depend on the processing

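Across 11 alternatives, 84 of 88 log2 fold changes of the 8 tested genes kept their direction and their side of the threshold. The exceptions were the 3 lost calls of Pdgfrb given with its values and Fgf1, which had -0.13 without control replicate 1 and 0.72 without control replicate 2 and never passed the test. The number of the 8 genes called was 6, or 5 where Pdgfrb was lost, and Fgf2 was the gene over 2-fold each time. With the DESeq2 Wald test, 1398 of all genes were higher and 1067 lower, and the cause was not tested. Leaving out each library in turn, with the lone library of a group assumed to vary like the other group, gave 1404 to 2010 higher and 1124 to 1712 lower, from fits with fewer samples, and the lowest counts came without IL-12 replicate 1. With the replicate block, 6 of the 8 genes, and 2272 higher and 2069 lower genes in all, were called. Deviations of same-numbered libraries had a correlation of -0.027, and no source says that a number marks a shared culture. Depth limits Fgf1, Fgf2, Fgf7 and Pdgfra, which had at most 63 counts in a library.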
